A study of Mus musculus with 12 samples.

Results

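Hemidesmosomes are the adhesion plaques that hold basal keratinocytes, the dividing cells of the epidermis and its hair follicles, onto the basement membrane. The genes described here were taken by mouse symbol: Lama3 and Lamb3, which encode the α and β chains of the basement membrane protein laminin-332, Itga3, Itga6 and Itgb4, which encode integrin chains that bind it, and Dst, which encodes the plakin that ties the plaque to the keratin filaments. They are 6 of the 55401 genes in the table, and all 6 were among the 14313 genes with a mean of at least 1 FPKM (a level corrected for transcript length and library size) that were tested. A gene is called where its p from edgeR, adjusted over all these genes, was under 0.05.

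Laminin-332 is a secreted protein of α, β and γ chains and is deposited beneath the basal cells. Integrin α6β4, the product of Itga6 and Itgb4, binds it in the hemidesmosome, where plectin and the epithelial form of dystonin connect the receptor to keratin filaments, while integrin α3β1, the product of Itga3 and Itgb1, binds it outside the plaque. Loss of any of these adhesion proteins weakens the junction between epidermis and dermis, and in wounds laminin-332 is laid down under the migrating epithelial tongue.

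The tissue was labelled dermis, the connective tissue beneath the epidermis, and came from C57BL/6 mice aged 6 weeks. There were 4 groups of 3 biological replicates: wild-type (WT) mice on day 0 and on day 7 of a wounding experiment, and on the same days mice without Cthrc1 (Cthrc1-/-), a gene for a secreted protein of wounds and remodelling arteries. All 12 libraries shared strain, age and tissue label. The labels do not say how the Cthrc1 allele was made, whether a replicate is 1 mouse or several, or whether both days were sampled from the same mice, nor do they say whether day 0 tissue was unwounded or at which stage of the hair cycle the skin was, so the p-values measure the spread between these samples.

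Promoters of 3 of the 6 members were taken from the RefSeq table for GRCm38.p6. Itga6 and Itgb4 had no window in that table, and Lama3 was left out of the search. Lamb3, Itga3 and Dst promoters are shown so that the start regions of members whose levels moved together can be compared, and Lama3, Itga6 and Itgb4 are named only. Each sequence runs 5′ to 3′ and ends at the base before the gene's annotated exon, and capitals mark GC boxes, the letters GGGCGG, which general promoter factors bind.
Dst, upstream of the 2 windows in the table (chr1:34011345-34011594, plus strand): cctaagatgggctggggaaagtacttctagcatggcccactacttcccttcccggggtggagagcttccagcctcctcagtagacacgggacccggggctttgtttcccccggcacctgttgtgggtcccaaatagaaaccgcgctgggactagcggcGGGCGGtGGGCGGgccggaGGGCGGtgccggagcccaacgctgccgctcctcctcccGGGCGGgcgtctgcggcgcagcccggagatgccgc
Dst, downstream of the 2 windows (chr1:34160010-34160259, plus strand): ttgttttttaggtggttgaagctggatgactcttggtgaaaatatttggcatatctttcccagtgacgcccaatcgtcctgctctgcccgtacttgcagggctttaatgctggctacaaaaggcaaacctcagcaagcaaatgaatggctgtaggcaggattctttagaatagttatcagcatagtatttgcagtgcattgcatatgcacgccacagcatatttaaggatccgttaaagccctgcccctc
Lamb3 (chr1:193301744-193301992, plus strand): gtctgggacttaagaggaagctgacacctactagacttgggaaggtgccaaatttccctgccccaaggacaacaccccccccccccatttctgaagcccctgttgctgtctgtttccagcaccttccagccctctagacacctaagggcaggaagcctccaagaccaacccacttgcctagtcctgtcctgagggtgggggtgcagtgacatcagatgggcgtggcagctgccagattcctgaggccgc
Itga3 (chr11:95076802-95076964, minus strand): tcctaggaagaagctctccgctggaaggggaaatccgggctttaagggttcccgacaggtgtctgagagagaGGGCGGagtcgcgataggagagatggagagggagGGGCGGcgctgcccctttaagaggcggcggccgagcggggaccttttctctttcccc

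Both Dst windows and the Lamb3 window lie inside their annotated genes, and the Itga3 window shown lies just before its gene. The upstream Dst window held 4 GC boxes and the Itga3 window 2 in the bases shown, whereas the downstream Dst window and the Lamb3 window held none. GC boxes were found in 32.7% of the 32851 windows of 250 bases in the table. The AP-1 motif TGANTCA, the TATA box TATAAA and the p63 motif, each searched on both strands as the GC box was, matched none of these 4 windows. The table also holds a window at another Itga3 start (chr11:95069199-95069448, minus strand), not shown here, with 1 GC box and no match to the other motifs. They were found in 6.75%, 12.4% and 7.13% of all windows. The motifs are letter matches and describe the windows only.

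Total counts were 48329668 to 76938132 per library, and members had 2035 to 54922 counts in each, so counting error was small for every member. Cthrc1 was between 21.1 and 27.0 FPKM in WT day 0, between 74.0 and 106 FPKM in WT day 7, and at most 0.151 FPKM in any library labelled Cthrc1-/-. Fibroblast RNA was present, with Col1a1 at 2211 to 3122 FPKM in WT day 0 and 136 to 1033 FPKM in Cthrc1-/- day 0. All libraries also carried epidermis, where the members are chiefly expressed. The sum of 5 basal keratinocyte genes (Krt5, Krt14, Krt15, Trp63 and Sfn) was 8519 to 9644 FPKM in WT day 0. That sum was 5368 to 9735 FPKM in Cthrc1-/- day 0. On day 7 it ranged over 2448 to 7223 FPKM in WT and 6211 to 6695 FPKM in Cthrc1-/-. In bulk tissue, fewer basal cells and less RNA of a gene per basal cell cannot be told apart. Replicates resembled each other most in WT day 0, with correlations across genes of 0.964 to 0.969, and least in Cthrc1-/- day 0 (0.863 to 0.929) and WT day 7 (0.878 to 0.957). WT day 7 replicate 1 had the lowest correlations with the others of its group (0.878 and 0.898). In Cthrc1-/- day 0, replicates 1 and 3 were farthest from each other (0.863), and replicate 2 lay between them (0.927 and 0.929), so neither end can be called the odd one. Replicate 1 had the lowest hair keratin sum of that group and replicate 3 the highest, as well as the lowest level of every member. Results are given without each library where that changes them, and also without both WT day 7 replicate 1 and Cthrc1-/- day 0 replicate 3, the libraries with the lowest members of their groups. That pair was picked by its member values, and leaving it out can narrow the spread within groups, which favours calls. Calls made without the pair are therefore no support.

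Hair keratin RNA separated the groups as well. The summed level of 8 genes of the inner root sheath and hair shaft was 3.68 to 6.46 FPKM in WT day 0, against 242, 5057 and 12531 FPKM in the Cthrc1-/- day 0 replicates. On day 7 it ranged over 1721 to 4089 FPKM in WT and 523 to 5526 FPKM in Cthrc1-/-. WT day 0 was thus the group without hair keratin RNA, and in both comparisons made against it the condition and the hair keratin level cannot be told apart. Of the 8 genes, 8 were called higher in Cthrc1-/- on day 0 and 7 higher on day 7 in WT.

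All 6 members had their highest group mean in WT day 0, and in the other 3 groups their means lay between 38.2% and 89.0% of it. In Cthrc1-/- day 0 every member was lower than in WT day 0 with no overlap between libraries, as were 19.8% of all genes tested. Member means were 41.3% (Dst) to 55.9% (Itga3) of the WT mean. Itga3 alone passed the test across all genes, where 2.26% of genes were called lower. In WT, Itga3, Itgb4 and Dst were called lower on day 7 than on day 0, as were 7.1% of all genes. Ranges there were lower without overlap for 5 of the 6 members, against 14.1% of all genes. On day 7 no member separated the genotypes. The plot of member levels by library shows these values.

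**Figure D1:**
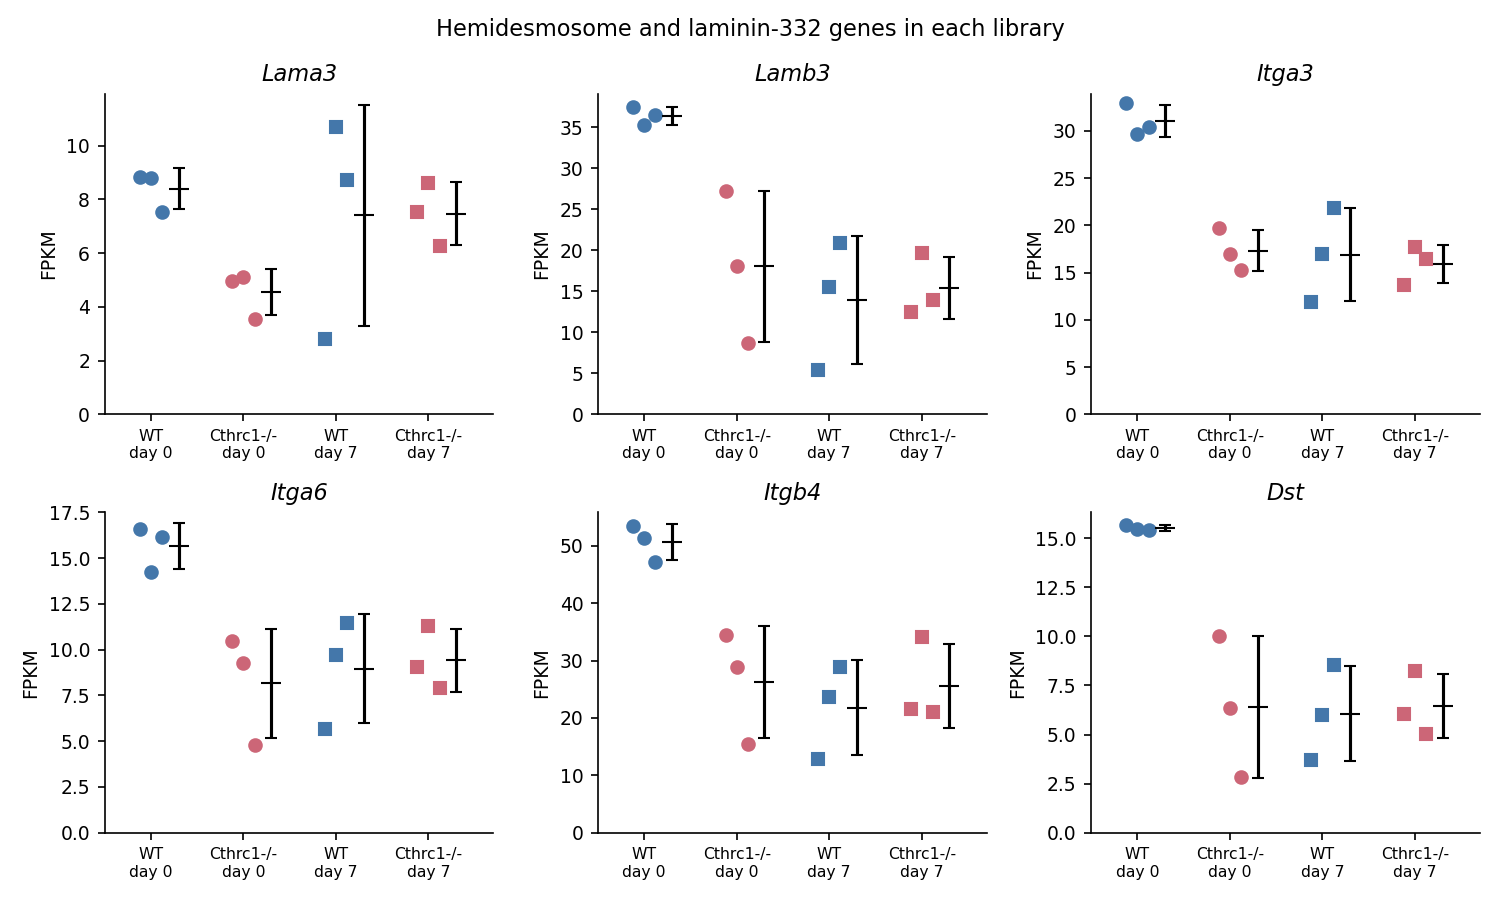
FPKM of the 6 members in each of the 12 libraries, 1 panel per gene, with group means and SD (n = 3); circles are day 0, squares day 7, blue WT and red Cthrc1-/-. WT day 0 libraries lie close together above all 3 Cthrc1-/- day 0 libraries in every panel, while Lama3 alone overlaps the WT day 0 range on day 7.

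Lama3 (ENSMUSG00000024421, chromosome 18, 12333819 to 12583013, plus strand, protein-coding, GRCm38) encodes the α3 chain, the part of laminin-332 that the integrins bind. Its levels were 8.85, 8.81 and 7.52 FPKM in WT day 0 and 4.97, 5.11 and 3.55 FPKM in Cthrc1-/- day 0. They were 2.80, 10.7 and 8.71 FPKM in WT day 7 and 7.52, 8.60 and 6.28 FPKM in Cthrc1-/- day 7. The 3 Cthrc1-/- day 0 libraries were below all WT day 0 and all Cthrc1-/- day 7 libraries, and WT day 7 held both the lowest and the highest library. Means were 8.39 ± 0.759 and 4.54 ± 0.864 FPKM on day 0 in WT and Cthrc1-/-, and 7.40 ± 4.10 and 7.47 ± 1.16 FPKM on day 7 (SD, n = 3 each). The log2 difference on day 0 was -0.98 (SE 0.366, edgeR adjusted p = 0.117) and did not pass the threshold of 0.05. Between days it was -0.41 in WT (SE 0.363, edgeR adjusted p = 0.473) and 0.55 in Cthrc1-/- (SE 0.364, edgeR adjusted p = 0.459). The lowest WT library on day 7 was replicate 1, and with that library and Cthrc1-/- day 0 replicate 3 left out the WT log2 difference between days was 0.0027.

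Lamb3 (ENSMUSG00000026639, chromosome 1, 193207699 to 193343878, plus strand, protein-coding) encodes the β3 chain, which is found in laminin-332 and few other laminins. Its levels were 37.5, 35.3 and 36.5 FPKM in WT day 0 and 27.2, 18.2 and 8.73 FPKM in Cthrc1-/- day 0. They were 5.46, 15.5 and 20.8 FPKM in WT day 7 and 12.5, 19.7 and 14.0 FPKM in Cthrc1-/- day 7. Every library of the other 3 groups was below every WT day 0 library, and these 3 groups overlapped one another. The means were 36.4 ± 1.09, 18.0 ± 9.26, 13.9 ± 7.81 and 15.4 ± 3.81 FPKM in WT and Cthrc1-/- on day 0 and then in WT and Cthrc1-/- on day 7 (SD, n = 3 each). The genotype difference on day 0 was -1.09 on the log2 scale (SE 0.469, edgeR adjusted p = 0.16). The day difference in WT was the largest of any member at -1.62 (SE 0.476), and its edgeR adjusted p of 0.0501 lay just outside the threshold.

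The RNA levels of Lama3 and Lamb3 did not keep their day 0 proportions. The FPKM ratio of Lamb3 to Lama3 was 4.37 ± 0.44 in WT day 0 and 3.83 ± 1.5 in Cthrc1-/- day 0, with overlap, and 1.93 ± 0.47 in WT day 7 and 2.06 ± 0.35 in Cthrc1-/- day 7 (SD, n = 3 each). In both genotypes the 3 day 7 ratios were below the 3 day 0 ratios. Ratios between members were read after the levels had been seen and were not tested, and no share over other gene pairs was taken.

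Itga3 (ENSMUSG00000001507, chromosome 11, 95044474 to 95076801, minus strand, protein-coding) encodes the α3 chain that pairs with the β1 integrin chain. Its levels were 32.9, 29.7 and 30.4 FPKM in WT day 0 and 19.7, 17.0 and 15.3 FPKM in Cthrc1-/- day 0. They were 11.9, 17.0 and 21.8 FPKM in WT day 7 and 13.7, 17.7 and 16.4 FPKM in Cthrc1-/- day 7. WT day 0 stood above all 9 other libraries, and those 9 overlapped between groups. Itga3 was 1.92-fold lower in Cthrc1-/- than in WT on day 0 (31.0 ± 1.68 against 17.3 ± 2.21 FPKM, SD, n = 3 each), or by -0.94 on the log2 scale (SE 0.185, edgeR adjusted p = 0.0307). In WT it fell 2.12-fold to 16.9 ± 4.95 FPKM on day 7 (SD, n = 3), or by -1.08 on the log2 scale (SE 0.185, edgeR adjusted p = 0.00767). In Cthrc1-/- the day difference was -0.28 (SE 0.183, edgeR adjusted p = 0.451), and the day 7 mean was 15.9 ± 2.03 FPKM (SD, n = 3).

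Itga3 had the smallest SE of the members, and its day 0 call was nonetheless near the threshold. It was lost without any 1 of the WT day 0 replicates (edgeR adjusted p = 0.0946, 0.1 and 0.103 without replicates 1, 2 and 3) and without Cthrc1-/- day 0 replicate 2 (0.0816) or 3 (0.0677). Without both WT day 7 replicate 1 and Cthrc1-/- day 0 replicate 3, picked for their low members, the log2 change was -0.78 (edgeR adjusted p = 0.0288). The call between days in WT was kept without any 1 library.

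Itga6 (ENSMUSG00000027111, chromosome 2, 71745616 to 71858416, plus strand, protein-coding) encodes the α6 chain, the partner of β4 in the plaque, used also to sort basal keratinocytes and follicle stem cells. Its levels were 16.6, 14.2 and 16.2 FPKM in WT day 0 and 10.5, 9.26 and 4.81 FPKM in Cthrc1-/- day 0. They were 5.68, 9.74 and 11.5 FPKM in WT day 7 and 9.04, 11.3 and 7.92 FPKM in Cthrc1-/- day 7. WT day 0 was again higher than every other library, with overlap among the rest. The means were 15.7 ± 1.26 FPKM in WT day 0 and 8.18 ± 2.98, 8.96 ± 2.97 and 9.42 ± 1.72 FPKM in the mutant on day 0, in WT on day 7 and in the mutant on day 7 (SD, n = 3 each). The genotype difference on day 0 was -1.02 on the log2 scale (SE 0.311, edgeR adjusted p = 0.0755). The day difference in WT was also -1.02 (SE 0.311, edgeR adjusted p = 0.0558), and neither passed.

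Itgb4 (ENSMUSG00000020758, chromosome 11, 115974709 to 116008412, plus strand, protein-coding) encodes the β4 chain, whose long tail inside the cell binds plectin. Per length it was the most abundant member in WT day 0, at 53.5, 51.3 and 47.2 FPKM. It was 34.5, 28.9 and 15.5 FPKM in Cthrc1-/- day 0, 12.8, 23.7 and 28.9 FPKM in WT day 7, and 21.6, 34.1 and 21.1 FPKM in Cthrc1-/- day 7. No library of the other groups reached the WT day 0 range. In WT, Itgb4 fell 2.7-fold, or by -1.43 on the log2 scale, from 50.7 ± 3.16 to 21.8 ± 8.24 FPKM on day 7 (SD, n = 3 each, SE of the change 0.349, edgeR adjusted p = 0.0271). The call was lost without any 1 of the WT day 0 replicates (edgeR adjusted p = 0.0708 to 0.077) and without WT day 7 replicate 1 (0.0741) or 2 (0.0629). Without both WT day 7 replicate 1 and Cthrc1-/- day 0 replicate 3, picked for their low members, the log2 change was -1.16 (edgeR adjusted p = 0.0102). The genotype difference on day 0 was -1.03 (SE 0.345, edgeR adjusted p = 0.0934), to 26.3 ± 9.73 FPKM (SD, n = 3).

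The RNA levels of Itgb4 and Itga6 kept a similar proportion between genotypes and a different one between days. The FPKM ratio of Itgb4 to Itga6 was 3.25 ± 0.34 in WT day 0 and 3.21 ± 0.086 in Cthrc1-/- day 0 (SD, n = 3 each), with overlap. On day 7 it was 2.40 ± 0.14 in WT and 2.69 ± 0.31 in Cthrc1-/- (SD, n = 3 each), below the day 0 ratios of the same genotype in every library.

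Dst (ENSMUSG00000026131, chromosome 1, 33908225 to 34308661, plus strand, protein-coding) encodes dystonin, a large plakin whose epithelial form sits in the inner plaque, while other forms from the same gene are used in nerve and muscle. Its levels were 15.7, 15.5 and 15.4 FPKM in WT day 0, the closest agreement of any member, and 10.03, 6.35 and 2.83 FPKM in Cthrc1-/- day 0. They were 3.70, 5.99 and 8.53 FPKM in WT day 7 and 6.07, 8.23 and 5.05 FPKM in Cthrc1-/- day 7. Every other library was below WT day 0, and Cthrc1-/- day 0 alone spanned the levels of both day 7 groups. In WT, Dst fell 2.97-fold, or by -1.57 on the log2 scale, from 15.5 ± 0.154 to 6.07 ± 2.41 FPKM on day 7 (SD, n = 3 each, SE of the change 0.43, edgeR adjusted p = 0.04). In Cthrc1-/- day 0 it was 6.41 ± 3.60 FPKM, with a log2 difference from WT of -1.35 (SE 0.428, edgeR adjusted p = 0.0821), and in Cthrc1-/- day 7 it was 6.45 ± 1.63 FPKM (SD, n = 3 each). The WT call was lost without any 1 of 9 libraries, namely each WT day 0 replicate (edgeR adjusted p = 0.0956 to 0.101), WT day 7 replicate 1 (0.115) or 2 (0.0955), Cthrc1-/- day 0 replicate 2 (0.0593) and Cthrc1-/- day 7 replicates 1 to 3 (0.0503 to 0.0605). Across all 24 alternatives run, Dst passed the threshold between days in WT in 10.

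The table gives Dst as 1 value per gene, so its epithelial, nerve and muscle forms are not separated. The summed level of 5 Schwann cell genes was 90.9 to 145 FPKM in WT and 24.8 to 102 FPKM in Cthrc1-/- on day 0, and 34.2 to 70.9 and 44.0 to 97.0 FPKM on day 7, with 1 of 5 called lower between days in WT. That of 5 skeletal muscle genes, in the same order of groups, was 204 to 482, 44.4 to 186, 94.3 to 820 and 71.4 to 162 FPKM, with none called. The part of Schwann cell and muscle RNA in the values of Dst, or of the other members, was not tested. The annotation places exons of other genes on the opposite strand of Dst (Gm26788 over 1037 bases and A930005N03Rik over 456), Itgb4 (B230344G16Rik, 537 bases) and Lama3 (Gm29200, 197 bases). The libraries were stranded, but whether strand was used in counting is not given in the sources used here.

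The first comparison, between genotypes on day 0, asked how WT and Cthrc1-/- skin differed in these genes at the start of the experiment. Of the 6 members, 1 (Itga3) was called lower, where 2.26% of all genes tested were called lower. All 6 had non-overlapping, lower FPKM ranges in Cthrc1-/-, against 19.8% of all genes, and an unadjusted p under 0.05 with a lower value, against 14.8%. The members' log2 differences ran from -1.35 to -0.94 with a median of -1.03, beside a median of -0.05 over all genes tested. DESeq2 called 4 of the 6. Over the alternatives other than leaving out 1 library, calls among all genes in either direction ranged from 0 to 2787. A member count therefore holds only for its own setting. Leaving out Cthrc1-/- day 0 replicate 3, which had the lowest value of its group for all 6 members and the highest hair keratin sum, removed the 1 call, and the log2 differences of Lamb3, Itgb4 and Dst were then -0.74, -0.73 and -0.97. Leaving out Cthrc1-/- day 0 replicate 1 gave 4 called members and leaving out WT day 7 replicate 1 gave 3, while none was called without any 1 of the WT day 0 replicates or without Cthrc1-/- day 0 replicate 2. Among all genes, 18 to 2150 were called in either direction with 1 library left out.

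The second comparison, between genotypes on day 7, asked the same a week later. None of the 6 members was called by edgeR, where 0.021% of all genes were called in either direction, and none by DESeq2 or limma. None had an unadjusted p under 0.05, as had 2.32% of all genes with a higher and 3.14% with a lower value. The log2 differences were -0.02 for Lama3 (SE 0.363), 0.12 for Lamb3 (SE 0.464), -0.14 for Itga3 (SE 0.183), 0.02 for Itga6 (SE 0.308), 0.19 for Itgb4 (SE 0.342) and 0.04 for Dst (SE 0.42). Libraries overlapped for all 6 members, where 6.46% of all genes were higher and 2.67% lower without overlap.

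The comparison between days in WT asked what changed over the week of the experiment. Of the 6 members, 3 (Itga3, Itgb4 and Dst) were called lower, where 7.1% of all genes were. Ranges were lower without overlap for 5 of the 6, all but Lama3, against 14.1% of all genes. The median log2 difference was -1.26, beside -0.0019 over all genes. WT day 7 replicate 1 had the lowest WT value of all 6 members, and without it 1 member (Itga3) was called. Without both that library and Cthrc1-/- day 0 replicate 3, a pair picked for its low members, the count was 5. The count was also 1 without any 1 of the WT day 0 replicates or WT day 7 replicate 2, and 5 without Cthrc1-/- day 0 replicate 1 or 3. Among all genes, 520 to 3008 were called in either direction with 1 library left out. This comparison and the genotype comparison on day 0 share the WT day 0 libraries, so the falls seen in both are not independent of each other.

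In Cthrc1-/-, none of the 6 members was called between days by edgeR, where 1.46% of all genes were called in either direction, and none by DESeq2 or limma. None had an unadjusted p under 0.05, as had 9.62% of all genes with a higher and 8.52% with a lower value. The log2 differences for Lamb3, Itga6, Itgb4 and Dst were -0.41 (SE 0.465), 0.03 (SE 0.308), -0.21 (SE 0.342) and -0.17 (SE 0.421). Lama3 alone had ranges without overlap, higher on day 7, as had 21.5% of all genes. The interaction, the day difference in Cthrc1-/- minus that in WT, was positive for all 6 members, from 0.80 (Itga3, SE 0.259) to 1.40 (Dst, SE 0.597). None was called by edgeR, where 0.014% of all genes were, with adjusted p of 0.237 to 0.405, and none by DESeq2 or limma. Positive with an unadjusted p under 0.05 were 4 of the 6, against 7.22% of all genes. A different course over time in the genotypes was therefore not detectable for any member at this number of samples. The plot of log2 differences gives all 4 contrasts side by side.

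**Figure D2:**
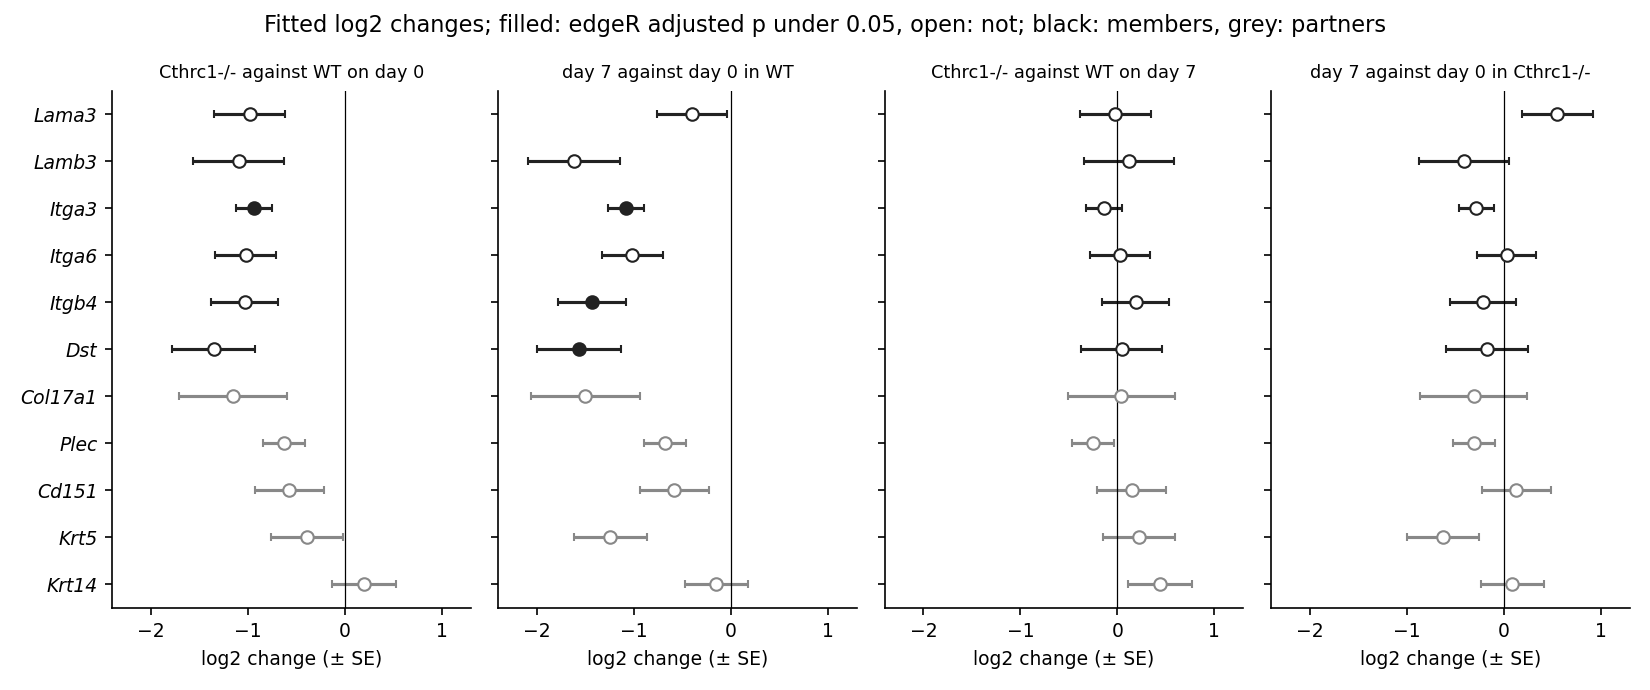
Log2 differences with SE (edgeR) for the 6 members (black) and 5 hemidesmosome partners (grey) in 4 contrasts, 1 panel each; filled points have an adjusted p under 0.05. The members lie left of 0 in both contrasts made against WT day 0 and around 0 in the other 2, apart from Lama3 at 0.55 between days in Cthrc1-/-.

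The members were next set against the basal keratinocyte genes themselves. Krt14, a basal keratin, was 2568, 2013 and 2081 FPKM in WT day 0 and 3064, 3297 and 1775 FPKM in Cthrc1-/- day 0, with group means of 105% (WT day 7) to 147% (Cthrc1-/- day 7) of WT day 0. Its partner Krt5 was 3826, 3388 and 3571 FPKM in WT day 0, 3822, 3128 and 1773 FPKM in Cthrc1-/- day 0 and 907, 1594 and 2821 FPKM in WT day 7. Neither keratin was called, with day 0 genotype differences of 0.20 for Krt14 (SE 0.328, edgeR adjusted p = 0.716) and -0.39 for Krt5 (SE 0.373, edgeR adjusted p = 0.512). Krt15, a keratin of resting basal and follicle bulge cells, was 2281, 2251 and 2397 FPKM in WT day 0 and 1761, 1124 and 424 FPKM in Cthrc1-/- day 0, lower without overlap, with a log2 difference of -1.14 that was not called (SE 0.637, edgeR adjusted p = 0.262). Whether member levels were lower per unit of basal keratinocyte RNA on day 0 depended on the gene used as the unit. The ratio of each member to Krt14 was lower in Cthrc1-/- day 0 without overlap for 6 of 6, where 20.7% of all genes had such a ratio. Group means of that ratio were 32.2% (Dst) to 47.8% (Itga3) of WT day 0. The ratio to Krt5 was lower without overlap for 5 of 6, all but Itga3, against 9.35% of all genes. The ratio to Trp63, the master transcription factor of stratified epithelium, was lower for 6 of 6, against 14.3%. The ratio to Krt15 overlapped between genotypes for 6 of 6, where 1.63% of all genes had a lower and 68.5% a higher ratio without overlap.

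Between days in WT the choice of basal gene mattered. The ratio to Krt14 was lower without overlap on day 7 for 5 of 6 members, all but Lama3, against 8.66% of all genes. To Krt5, whose log2 difference in WT was -1.25 (SE 0.378, edgeR adjusted p = 0.0545), the ratio was lower for Lamb3 and Dst, against 1.49% of all genes, and higher for Lama3, against 73.1%. To Trp63, which fell (log2 change -1.02, SE 0.299, edgeR adjusted p = 0.049), it was also lower for Lamb3 and Dst, against 2.14%, and higher for Lama3, against 62.9%. Krt15 fell as well, by -3.19 on the log2 scale from 2310 ± 77.2 to 301 ± 258 FPKM in WT (SD, n = 3 each, SE of the change 0.684, edgeR adjusted p = 0.0173), and the ratio to it was higher on day 7 for 6 of 6 members, against 96.9% of all genes. When a score of the 5 basal genes was put into the fit, 5 members were called lower in Cthrc1-/- on day 0 and none between days in WT. With a score of the 8 hair genes none was called in either. The shares of all genes called in these fits are not given here, and all-gene calls varied widely between settings.

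**Figure D3:**
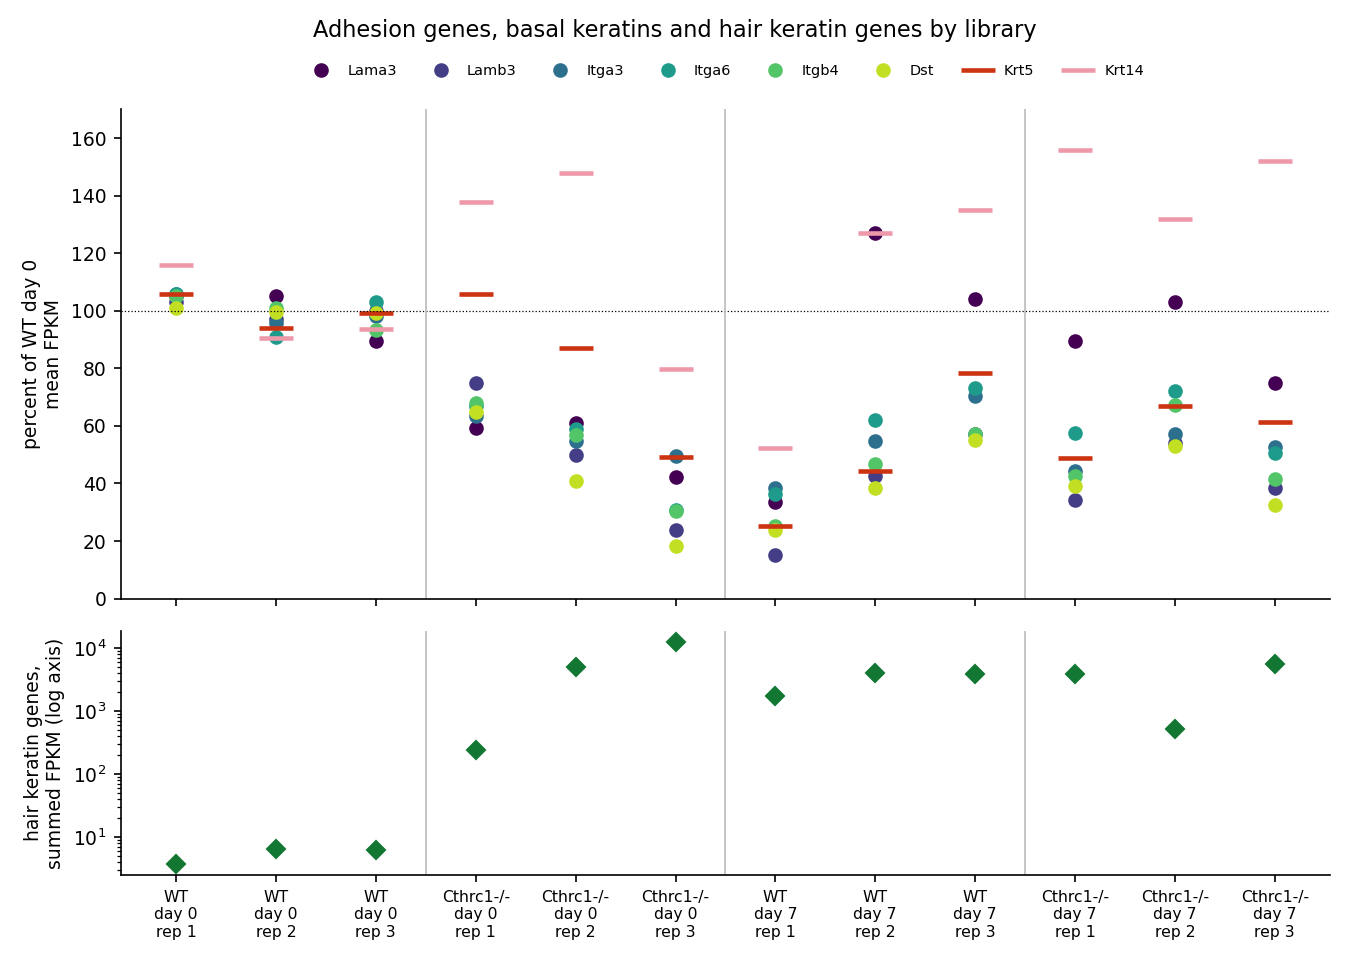
Top, level of each member and of Krt5 and Krt14 in each library as a percent of its WT day 0 mean FPKM; bottom, summed FPKM of 8 hair keratin and inner root sheath genes on a log axis. Members sit well below Krt14 in every Cthrc1-/- day 0 library, and the hair sum is at most 6.46 FPKM in WT day 0 and at least 242 FPKM elsewhere.

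In each of the other 3 groups the hair sum and the members can be compared over 3 libraries only, and this was not tested. In Cthrc1-/- day 0 the library with the most hair keratin RNA (replicate 3) had the lowest members, and in Cthrc1-/- day 7 the library with the least (replicate 2) had the highest. In WT day 7, however, the library with the least hair keratin RNA (replicate 1) had the lowest level of all 6 members, and also the lowest basal keratinocyte sum, at 2448 FPKM. Wound-edge keratins, which activated epidermis makes, were higher in Cthrc1-/- day 0: 2 of 4 were called, Krt16 (log2 change 2.90, edgeR adjusted p = 0.0416) and Krt17 (1.18, edgeR adjusted p = 0.0311). The 6 fibroblast genes summed to 4814 to 6441 FPKM in WT day 0 and 337 to 2386 FPKM in Cthrc1-/- day 0, with 1 of 6 called lower. Adipocyte genes (4, of which 3 were tested) summed to 61.7 to 87.9 FPKM in WT day 0, 5.86 to 37.2 FPKM in Cthrc1-/- day 0, 4.23 to 17.5 FPKM in WT day 7 and 3.26 to 19.3 FPKM in Cthrc1-/- day 7. All 3 were called lower between days in WT (median log2 change -3.12), and on day 0 edgeR called 0, with 2 at an unadjusted p under 0.05, though all 3 were lower in Cthrc1-/- without overlap (median -1.98). The 5 endothelial genes summed, in the same order of groups, to 68.3 to 72.4, 18.8 to 56.2, 58.1 to 114 and 95.1 to 162 FPKM. None was called by edgeR in any contrast, with 1 at an unadjusted p under 0.05 on day 0, where 5 of 5 were lower without overlap in Cthrc1-/-. Between days in Cthrc1-/- the unadjusted edgeR p was under 0.05 for 4 of the 5. All 5 were then higher on day 7 without overlap, as were 21.5% of all genes. No suprabasal keratinocyte or immune gene was called by edgeR in any contrast either, with 1 and 0 at an unadjusted p under 0.05 on day 0. Between days all 4 immune genes tested were higher on day 7 in both genotypes. The unadjusted edgeR p was under 0.05 for 3 of them in WT and 2 in Cthrc1-/-. The suprabasal sum of 6 genes was 2483 to 2891 FPKM in WT day 0 and 633 to 2052 FPKM in Cthrc1-/- day 0. Its genes were split on day 0, with 3 lower in Cthrc1-/- without overlap (Krt1, Krt10 and Krtdap) and 3 higher. Of the higher ones, Flg (log2 difference 2.66) and Ivl (0.62) did not overlap and Lor (0.57) did. The sum of 5 immune genes was 18.9 to 23.3 FPKM in WT day 0 and 4.69 to 17.6 FPKM in Cthrc1-/- day 0. The part of these cell types in the member values was not tested.

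Hemidesmosome partners outside the members (Col17a1, Plec, Cd151, Krt5 and Krt14) gave 0 of 5 called by edgeR in each of the 5 contrasts, with 1, 0, 3, 0 and 0 at an unadjusted p under 0.05. Their median log2 difference was -0.57 between genotypes on day 0 and -0.68 between days in WT. Col17a1, the transmembrane collagen of the plaque, was 293, 270 and 275 FPKM in WT day 0 and 196, 136 and 64.8 FPKM in Cthrc1-/- day 0. It was 32.6, 112 and 205 FPKM in WT day 7 and 96.6, 164 and 102 FPKM in Cthrc1-/- day 7. All other libraries were below WT day 0, as for most members, and Col17a1 spread more widely. Its log2 differences were -1.16 on day 0 (SE 0.558, edgeR adjusted p = 0.202) and -1.50 between days in WT (SE 0.563, edgeR adjusted p = 0.0968). Plec, the plectin gene, had lower ranges without overlap in both (-0.63 and -0.68 on the log2 scale), and Cd151, the tetraspanin that associates with these integrins, overlapped in both.

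The other genes of the adhesion zone were described by lists of known roles. Of 8 other integrin chains of keratinocytes, 2 were called lower in Cthrc1-/- on day 0: Itga2, the collagen receptor chain, by a log2 change of -1.34 (SE 0.272, edgeR adjusted p = 0.0326), and Itgb5 by -0.64 (SE 0.116, edgeR adjusted p = 0.0235). Itga2 was 4.79, 4.48 and 4.36 FPKM in WT day 0 against 2.39, 2.15 and 1.18 FPKM in Cthrc1-/- day 0. It fell in WT to 2.31, 2.62 and 2.43 FPKM on day 7 (log2 change -1.07, SE 0.27, edgeR adjusted p = 0.0303), the only one of the 8 called there. Itgb1, the partner of Itga3, had log2 differences of -0.53 and 0.20 in these contrasts and was not called (edgeR adjusted p = 0.302 and 0.717). Of 7 other laminin chains tested out of 8, none was called on day 0 and Lamb1, a chain of vessel and dermal laminins, rose between days in WT (1.02, SE 0.204, edgeR adjusted p = 0.0135).

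Of 9 basement membrane and anchoring fibril genes tested out of 10, Col4a5, a collagen chain of the epidermal basement membrane, was lower in Cthrc1-/- on day 0 (-1.15, SE 0.228, edgeR adjusted p = 0.0311) and fell between days in WT (-1.60, SE 0.231, edgeR adjusted p = 0.00544). Its partner chain Col4a6 also fell in WT (-2.25, SE 0.564, edgeR adjusted p = 0.0298). Nid2, a nidogen that links laminin to collagen networks, moved the other way: it rose between days in WT (1.45, SE 0.351, edgeR adjusted p = 0.0266) and in Cthrc1-/- (2.33, SE 0.361, edgeR adjusted p = 0.0216). Of 8 focal adhesion genes, Ilk, the integrin-linked kinase, was lower in Cthrc1-/- on day 0 (-0.76, SE 0.135, edgeR adjusted p = 0.0234) and rose between days in Cthrc1-/- (0.70, SE 0.135, edgeR adjusted p = 0.0404). Fermt1, the kindlin of keratinocytes, fell in WT (-0.95, SE 0.216, edgeR adjusted p = 0.0213). None of 3 tested genes for enzymes that trim laminin-332 was called in any contrast, and between genotypes on day 7 edgeR called no gene of any of these lists, with 1 of them, an integrin gene, at an unadjusted p under 0.05. The plot by role shows each list.

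**Figure D4:**
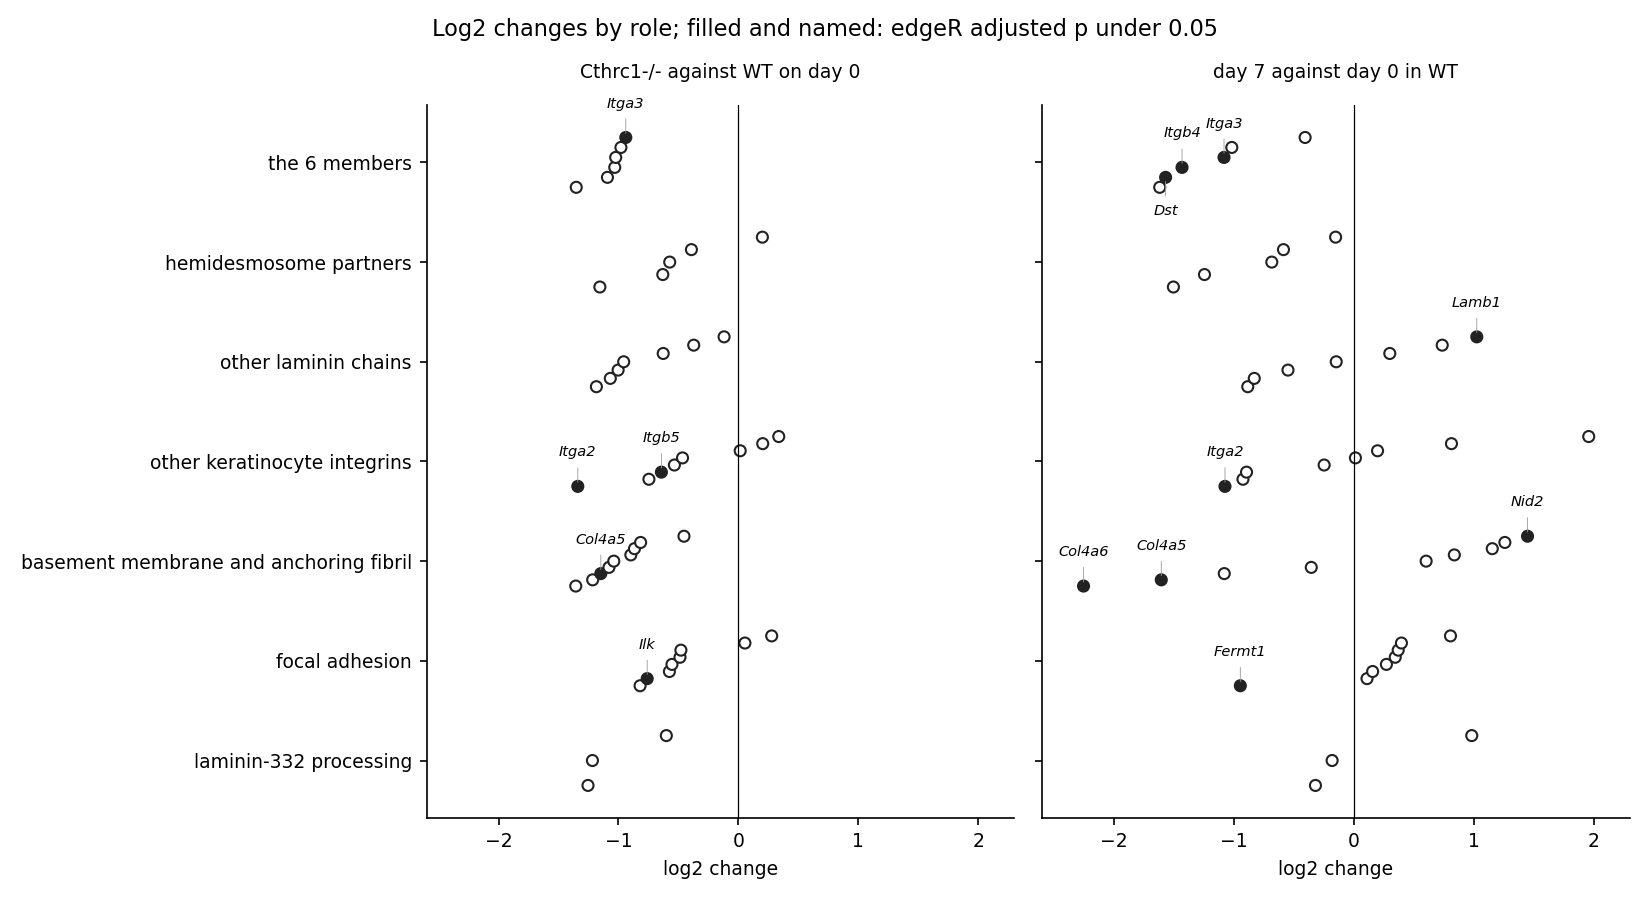
Log2 differences of each tested gene by role list, between genotypes on day 0 (left) and between days in WT (right); filled and named points have an edgeR adjusted p under 0.05. The 6 members lie left of 0 in both panels, while the basement membrane list falls on both sides of 0 between days, from Col4a6 at -2.25 to Nid2 at 1.45.

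Across the 12 libraries the members formed a close set with 1 member apart, described here by Pearson correlation of log2(FPKM + 1), with libraries shared by all pairs. Among Lamb3, Itga3, Itga6, Itgb4 and Dst it was 0.877 to 0.984, and Lama3 correlated with them at 0.564 to 0.76. Among 7023 genes with a mean of at least 5 FPKM, Col17a1 was the most like Lamb3 (0.987), followed by Aldh6a1 and Cachd1 (0.978 each). The nearest genes to Dst were Adh1 (0.985), Gramd4 (0.97) and Atp2b4 (0.969), to Itgb4 Aldh6a1 (0.98), Atp2b4 (0.976) and Adh1 (0.972), and to Itga6 Cyp2j6 (0.981), Atp2b4 (0.97) and Dkk3 (0.964). Itga3 was most like Lysmd1 (0.972), Wee1 (0.955) and Ptpn14 (0.953), and Lama3 most like Sh3bp4 (0.959), Elf4 (0.942) and Col23a1 (0.94). With the basal genes Krt5, Krt15 and Trp63 the members other than Lama3 correlated at 0.771 to 0.924, 0.755 to 0.909 and 0.628 to 0.817, and Lama3 at 0.448, 0.344 and 0.435. With Krt14 the members correlated at 0.0701 (Itga3) to 0.555 (Lama3), and with the inner root sheath keratin Krt25 at -0.894 (Dst) to -0.371 (Lama3).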

How the data were processed

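RNA was sequenced from 12 mouse skin samples. Poly(A) RNA, per the labels' protocols, was made into stranded (dUTP) paired-end libraries with molecular identifiers. The submitters' processing notes name cutadapt 1.9, HISAT2 2.0.4, UMI-tools, StringTie 1.3.4d, DESeq2, edgeR and the GRCm38 build, without saying what each was used for. The authors deposited whole-number counts and FPKM per Ensembl gene. A count of 0 carried an FPKM of 0.0001 and was taken as 0. Genes at a count of 4 were 3.16 to 4.05 times as frequent as at neighbouring counts, so a count need not be 1 fragment, and division by 4 was an alternative. A floor of 3 counts was 0.039 to 0.0621 CPM, for counting error only.

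Names and positions came from GENCODE M21, which named 55141 of 55401 IDs. Counts were tested in R 4.3.3 with edgeR 4.0.16 (TMM, quasi-likelihood, two-sided), in 1 fit of all 12 samples with a mean per group, on the 14313 genes whose mean FPKM was 1 or more. Adjusted p is Benjamini-Hochberg over these genes and calls are at adjusted p under 0.05. SE was taken as the size of the log2 change over the root of F. Groups and replicate numbers came from the titles. The procedure was tested on simulated data. Alternatives used DESeq2 1.42.0, limma 3.58.1 on log2(FPKM + 1) and log2(FPKM + 0.1), other scaling and filters, marker scores as covariates (mean log2 levels of the listed genes), a replicate block and leaving out libraries. Leaving out both WT day 7 replicate 1 and Cthrc1-/- day 0 replicate 3 was added after seeing the data, as were ratios to Krt15. They were run for the members only, not for the genes of the lists.

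All members are described in every contrast. Of each list, up to 3 called genes per contrast are named by size of change, or where none was called up to 2 by mean FPKM. For likeness, the 3 highest correlations are given. Other genes, among them Col17a1, Plec, Cd151, Itgb1 and the marker genes, were chosen after their values were seen. The members and lists were chosen with earlier results of these data known. Lama1, Fras1, Tll1, Plg, Cd3e and Lep were under the filter. From the partner list, 1 gene is not reported here.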

Additional observations from a re-analysis of the deposited data

How the results depend on the processing

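The number of members called lower on day 0 in Cthrc1-/- was 1, and it was 4 with DESeq2, 0 without a filter on low values, 0 with only the groups compared fitted, 5 with the basal keratinocyte score as covariate, 0 with the hair follicle score, 3 without both WT day 7 replicate 1 and Cthrc1-/- day 0 replicate 3, and 0 to 4 when each library was left out in turn. The number between days in WT was 3, and it was 5 with DESeq2, 0 with either score, 5 without the same pair of libraries, and 1 to 5 when each was left out in turn. Itga3, Itgb4 and Dst passed the threshold there in 22, 17 and 10 of 24 alternatives. The other 3 contrasts had 0 under every alternative run. Over all genes tested, calls in either direction ranged from 0 to 2787 on day 0 and from 0 to 3551 between days in WT. These ranges are over the alternatives other than leaving out 1 library. With 1 library left out, they were 18 to 2150 and 520 to 3008. Member counts under different settings thus stand against different numbers of calls, which are not given here by setting. The member counts are therefore not read as results about the members. The hair score and WT day 0 cannot be told apart, and the cause of the other shifts was not tested.

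Signs changed as follows on the log2 scale. With the hair score, the genotype difference on day 0 was 0.36 for Lamb3, 0.0747 for Itga6, 0.26 for Itgb4 and 0.38 for Dst, and on day 7 it was -0.0315 for Lamb3, -0.0687 for Itga6 and -0.11 for Dst. The WT day difference was then 0.0076 for Lama3, 0.13 for Itga6 and 0.32 for Dst, that in Cthrc1-/- was -0.0095 for Itga6, and the interaction was -0.39 for Lamb3, -0.14 for Itga6, -0.20 for Itgb4 and -0.49 for Dst. With the basal score, the genotype difference on day 7 was -0.27 for Lamb3, -0.26 for Itga6, -0.12 for Itgb4 and -0.32 for Dst. The WT day difference was 0.80 for Lama3, 0.14 for Lamb3 and 0.0643 for Itga6, and that in Cthrc1-/- was 0.70 for Lamb3, 0.0501 for Itga3, 0.48 for Itgb4 and 0.68 for Dst. Without the same pair of libraries, the genotype difference on day 7 was -0.25 for Lamb3, -0.19 for Itga6, -0.0566 for Itgb4 and -0.19 for Dst. The day difference was 0.0027 for Lama3 in WT and -0.27 for Itga6 in Cthrc1-/-. With limma on log2(FPKM + 1) and on log2(FPKM + 0.1), Lama3 on day 7 was 0.16 and 0.21, Itgb4 between days in Cthrc1-/- 0.00026 and 0.0022, and Dst there 0.11 and 0.16. With total-count scaling, which moved the median of all genes to 0.20 between days in WT and 0.16 in Cthrc1-/-, Lama3 on day 7 was 0.0172 and Dst between days in Cthrc1-/- 0.0249.

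Leaving out each library in turn, or the pair named above, the genotype difference on day 7 ranged from -0.40 to 0.34 for Lama3, from -0.25 to 0.47 for Lamb3, from -0.30 to 0.028 for Itga3 and from -0.0843 to 0.39 for Itgb4. The day difference ranged from -0.77 to 0.0659 for Lama3 in WT, and in Cthrc1-/- from -0.77 to 0.0508 for Lamb3, from -0.27 to 0.28 for Itga6, from -0.52 to 0.0627 for Itgb4 and from -0.56 to 0.34 for Dst. With the pair, whose values are given above, not counted, the genotype difference on day 7 ranged from -0.18 to 0.19 for Itga6 and from -0.18 to 0.31 for Dst.

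Deviations of same-numbered samples from their group means correlated at -0.23 to 0.43 over the pairs of groups. Between WT day 0 and WT day 7 the same-numbered samples were the closest (0.0869, 0.0232 and 0.0743, others at most 0.0157). Such weak values cannot show whether the replicate numbers mark shared mice. A fit with the replicate block called 1 member on day 0 and 2 between days in WT (Dst was lost, edgeR adjusted p = 0.0695). With that block the day 7 genotype difference was 0.0156 for Lama3, -0.0024 for Itga6 and -0.0128 for Dst, and no other call differed.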
